A study of Mus musculus with 12 samples.

Results

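The genes described here are 38 mouse genes of T-cell and natural killer (NK) cell identity and cytotoxicity, taken as a list of symbols and matched to the Ensembl identifiers of the count table, in which they are 38 of 78298 rows. They cover the T-cell receptor and its CD3 chains, the CD4 and CD8 coreceptors, adhesion and costimulatory receptors, receptor-proximal signalling, transcription factors, cytokine receptors, cytotoxic effectors, NK receptors and 2 chemokines. All 38 passed the filter on low counts. RNA was sequenced from mouse lung in 4 groups of 3 libraries: normal adjacent lung with VEH treatment, normal adjacent lung with HDM treatment, LLC tumours with VEH and LLC tumours with HDM. HDM is house dust mite, given chronically per the series design text, and VEH and LLC are used as the labels give them. Every piece was macroscopically dissected lung tissue, frozen before extraction, and the labels used here give no strain, age or sex, and no allele or other agent. The tissue was not sorted, so the values sum over all cells of a piece, and fewer cells of a type cannot be told apart from less RNA per cell.

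T cells recognise antigen through a receptor of paired alpha and beta (or gamma and delta) chains, which signals through the CD3 chains and CD247. Lck and Zap70 start that signal and Lat assembles it. CD8 T cells and NK cells kill targets with perforin and granzymes or through Fas ligand, NK cells without an antigen receptor, and regulatory T cells marked by Foxp3 restrain such responses. In tumours, infiltrating CD8 T cells and NK cells are the lymphocytes best known for killing tumour cells, and Xcl1 and Ccl5 are chemokines they secrete.

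Library totals lay between 20608682 and 32765364 counts. A CPM value below is a count divided by its TMM-adjusted library total, on the usual CPM scale, and values in 3 libraries are given in the order of replicates 1, 2 and 3. Library names carry 6 prefixes, each joining 1 normal and 1 tumour library, and for 2 prefixes the treatment labels of the pair conflict. Those 4 libraries are replicate 2 of normal VEH and of tumour HDM, which share a prefix, and replicate 3 of normal HDM and of tumour VEH, which share another. Tumour HDM replicate 3 stood apart from the other tumours. It held the lowest value of its group for 33 of the 38 genes, and its epithelial genes were nearly absent (Epcam and Cdh1 at 0 counts, Sftpc 3.12 CPM). Results that rest on it are given with and without it. The labels do not say that replicates came from separate animals, so p-values measure the spread between these samples only.

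**Figure D1:**
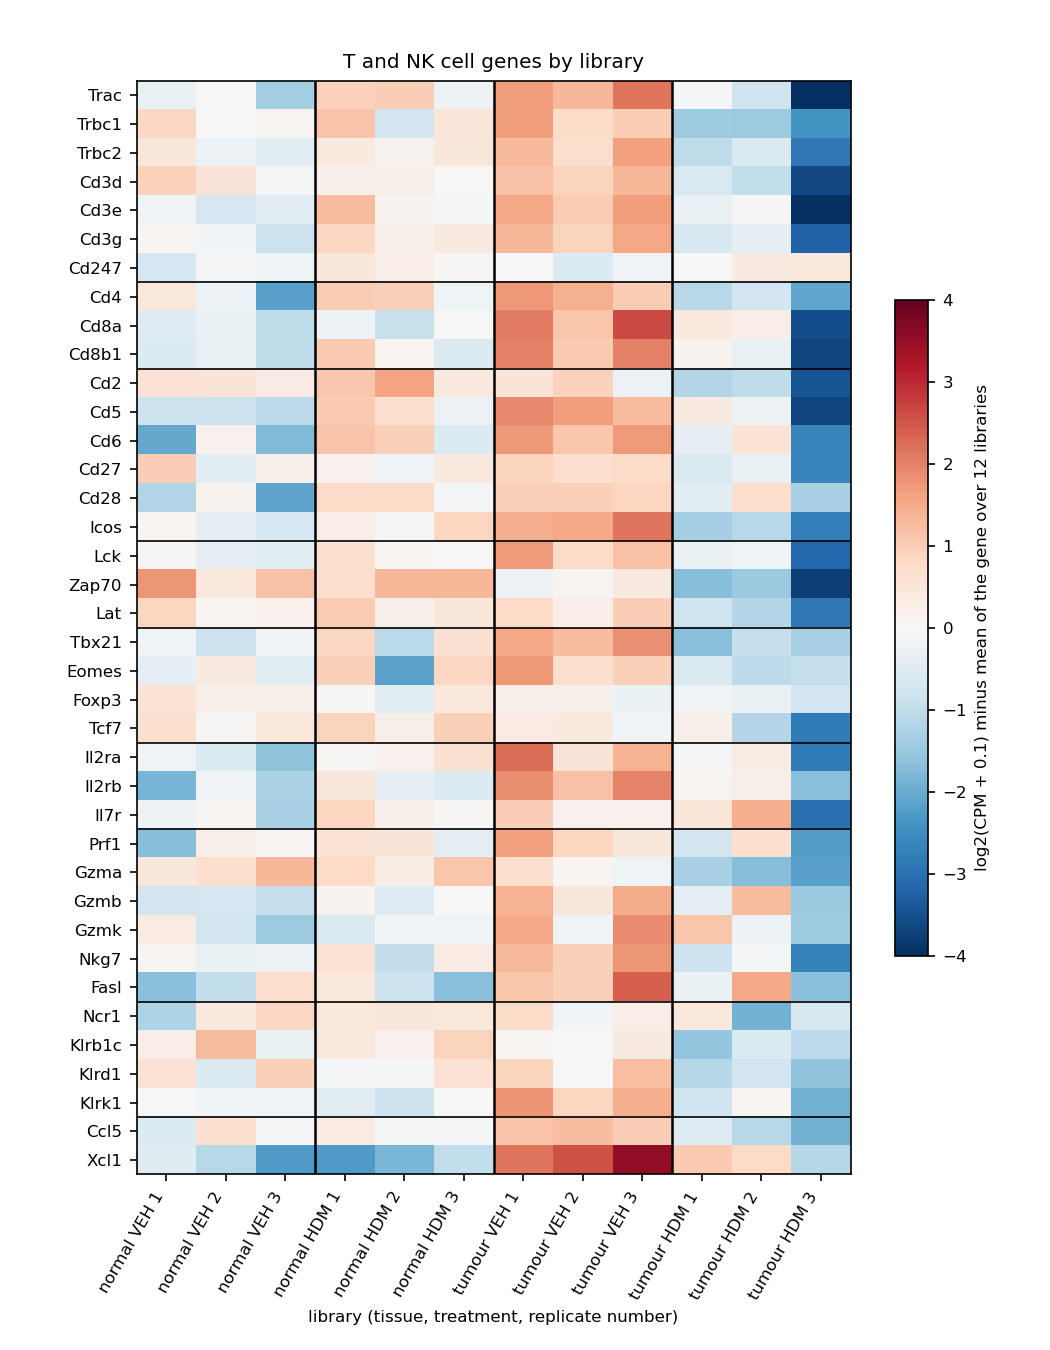
Heat map of 38 T and NK cell genes (rows, grouped by role between the horizontal lines) in 12 libraries (columns). Colour is log2(CPM + 0.1) minus the mean of that gene over the 12 libraries, cut at 4 in either direction; the 3 VEH tumours are red for most genes, and tumour HDM replicate 3 is blue for most, Cd247 being an exception.

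Only Cd4, Icos, Tbx21 and Xcl1 passed edgeR's quasi-likelihood test in both comparisons of tumour with normal lung. Cd4, Icos and Tbx21 were higher in tumours under VEH and lower under HDM, and Xcl1 was higher under both. Without tumour HDM replicate 3, Cd4 and Tbx21 did not pass under HDM (adjusted p = 0.0951 and 0.0779 by that test). The 250 bases before the start of the Ensembl canonical transcripts of these genes (GENCODE M39 on GRCm39) are shown because both comparisons bear on them. Capitals mark matches, on either strand, to a RUNX motif (TGTGGT or ACCACA), a T-box motif (GGTGTGA or TCACACC) and an ETS motif (AGGAAG or CTTCCT). RUNX, T-box and ETS proteins are transcription factor families with members active in T and NK cells.
Cd4: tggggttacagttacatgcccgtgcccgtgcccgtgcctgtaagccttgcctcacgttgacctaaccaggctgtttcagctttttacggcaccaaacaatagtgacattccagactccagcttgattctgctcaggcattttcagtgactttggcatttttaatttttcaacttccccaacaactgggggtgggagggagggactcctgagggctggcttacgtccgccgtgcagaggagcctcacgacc
Icos: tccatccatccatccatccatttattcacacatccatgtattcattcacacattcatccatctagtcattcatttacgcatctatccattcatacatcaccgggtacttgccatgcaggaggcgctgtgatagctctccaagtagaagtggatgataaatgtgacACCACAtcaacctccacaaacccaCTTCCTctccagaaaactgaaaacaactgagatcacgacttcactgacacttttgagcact
Tbx21: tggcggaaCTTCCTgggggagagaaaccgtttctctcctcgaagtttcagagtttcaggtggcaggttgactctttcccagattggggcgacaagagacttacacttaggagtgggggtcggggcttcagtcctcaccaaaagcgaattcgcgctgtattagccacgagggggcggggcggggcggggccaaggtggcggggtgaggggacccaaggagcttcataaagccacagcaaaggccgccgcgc
Xcl1: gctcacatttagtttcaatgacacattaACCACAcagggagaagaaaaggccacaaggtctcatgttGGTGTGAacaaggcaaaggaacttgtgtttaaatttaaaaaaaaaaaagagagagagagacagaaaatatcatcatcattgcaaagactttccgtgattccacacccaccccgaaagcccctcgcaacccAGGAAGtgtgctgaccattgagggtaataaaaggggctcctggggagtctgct
They lie at chr6:124865185-124865434 (minus strand), chr1:61016836-61017085 (plus strand), chr11:97006159-97006408 (minus strand) and chr1:164763097-164763346 (minus strand), each printed 5′ to 3′ along its gene. Cd4's window lies within introns of longer Cd4 transcripts that start upstream, and the window of Xcl1 overlaps an exon of the antisense lncRNA gene Gm20743. The Xcl1 window held a match to each of the 3 motifs, the Icos window a RUNX and an ETS match, the Tbx21 window an ETS match, and the Cd4 window none of these letters. Of the 35 protein-coding genes of the list, 14 (40.0%) held the RUNX letters, 4 (11.4%) the T-box letters and 21 (60%) the ETS letters in such a window. Over 21770 protein-coding genes the shares were 13%, 3.2% and 28.9%. A match is a description of the sequence and no site of binding.

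Under VEH, coreceptors, interleukin-2 receptor chains and several other T and NK cell genes were higher in tumours than in normal lung, while most genes of the list did not pass the test. Between VEH tumours and normal VEH lung, 12 of 38 genes rose and 0 fell (edgeR's quasi-likelihood test, adjusted p below 0.05 over 22190 genes), with 0 lower at an unadjusted p below 0.05 and 0 called lower by DESeq2's Wald test. Of all genes tested, 18.2% rose and 20.6% fell. The log2 change was above 0 for 33 of the 38, with a median of 1.52, against a median of -0.11 over all genes tested. In 24 genes every VEH tumour lay above every normal VEH library, against 23.9% of all genes, and only for Zap70 did every tumour lie below, against 28.5% of all genes. The 12 that rose were Cd4, Cd8a, Cd8b1, Cd5, Cd6, Icos, Il2ra, Il2rb, Tbx21, Gzmb, Klrk1 and Xcl1.

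The coreceptors, which bind the MHC molecule beside the T-cell receptor, rose as a group of 3 of 3. Cd8a measured 2.22, 2.61 and 1.52 CPM in normal VEH lung and 13.4, 6.99 and 20.3 CPM in VEH tumours, a log2 change of 2.68 ± 0.83 (SE, adjusted p = 0.0278). Cd8b1, the beta chain of the CD8 heterodimer, rose by 2.42 ± 0.86 (adjusted p = 0.046). Cd4 measured 5.09, 3.21 and 0.758 CPM in normal lung and 12.9, 10.3 and 7.84 CPM in tumours, a change of 1.77 ± 0.62 (adjusted p = 0.0418). All 3 coreceptors were higher in each VEH tumour than in each normal VEH library, and normal VEH replicate 3 was the lowest for all 3. Per length, the ratio of Cd8a to Cd4 was 0.483, 0.902 and 2.22 in normal VEH lung and 1.15, 0.755 and 2.88 in VEH tumours, so it overlapped between the groups.

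Of the cytokine receptors 2 of 3 rose. Il2rb, the beta chain shared by the interleukin-2 and interleukin-15 receptors, measured 2.46, 8.62 and 3.79 CPM in normal VEH lung and 33.6, 20.8 and 37.1 CPM in VEH tumours. Its log2 change was 2.62 ± 0.59 (adjusted p = 0.00661), and the lowest tumour lay above the highest normal library. Il2ra, the high-affinity alpha chain, rose by 2.33 ± 0.81 (adjusted p = 0.0414), and Il7r, the interleukin-7 receptor of resting T cells, changed by 0.88 ± 0.80 (adjusted p = 0.393). The lncRNA gene Gm62993 overlaps Il2rb on the opposite strand, with 625 counts of its own against 3900 for Il2rb over all libraries. Whether the counting used strand is not stated, so reads of either gene could belong to the other, in an unknown number. This and the overlaps below are of whole gene spans and may lie in introns.

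Among costimulatory and adhesion receptors, Icos (inducible costimulator), Cd5 and Cd6 (scavenger-type receptors that tune the T-cell receptor signal) rose and Cd2, Cd27 and Cd28 did not pass. Icos measured 1.07, 0.755 and 0.589 CPM in normal VEH lung and 2.89, 3.12 and 4.71 CPM in VEH tumours (change 2.14 ± 0.58, adjusted p = 0.0157). Cd5 rose by 2.69 ± 0.89 (adjusted p = 0.0344) and Cd6 by 2.50 ± 0.90 (adjusted p = 0.0464). All 3 VEH tumours exceeded all 3 normal VEH libraries for Icos, Cd5, Cd6 and Cd28. Cd2, the adhesion receptor for CD48, was 6.98 ± 2.64 CPM (mean ± SD, n = 3) in VEH tumours and 6.94 ± 0.627 CPM in normal VEH lung (change 0.01 ± 0.56), the smallest change of the list. The protein-coding gene Vamp1 overlaps Cd27 on the opposite strand with more counts than Cd27 (1672 against 593), so the Cd27 values are uncertain. The lncRNA gene A430093F15Rik overlaps Cd6 on the opposite strand with 190 counts against 758.

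Tbx21 encodes T-bet, the transcription factor of type 1 T cells and NK cells. It measured 0.657, 0.378 and 0.674 CPM in normal VEH lung and 2.38, 1.86 and 2.86 CPM in VEH tumours, a change of 2.05 ± 0.59 (adjusted p = 0.0192), with no overlap. Eomes, a related T-box factor, did not pass (1.42 ± 0.79, adjusted p = 0.168), and neither did Tcf7, the factor of naive and memory T cells (-0.18 ± 0.57), or Foxp3 (-0.25 ± 0.28, adjusted p = 0.498). Foxp3 was 12.3, 9.88 and 9.60 CPM in normal VEH lung and 9.73, 10 and 7.01 CPM in VEH tumours, overlapping ranges. Per length, its ratio to Cd3e was 4.69, 5.60 and 4.62 in normal VEH lung and 1.12, 1.69 and 0.736 in VEH tumours, with no overlap. In normal HDM lung the ratio was 1.22, 1.95 and 4.01, and in HDM tumours 3.21, 2.27 and 72.7, the last on 163 Foxp3 and 2 Cd3e counts. As the Foxp3 levels overlapped between the VEH groups, the ratio moved mostly with Cd3e, and it gives no share of regulatory T cells. Ppp1r3f and Ccdc22 overlap Foxp3 on the opposite strand with 252 and 189 counts against 2724, and Gm33460 overlaps Eomes on the opposite strand with 105 counts against 267.

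Of the cytotoxic genes, Gzmb (granzyme B) rose. It measured 1.07, 1.13 and 0.926 CPM in normal VEH lung and 5.01, 2.60 and 5.35 CPM in VEH tumours (change 2.04 ± 0.64, adjusted p = 0.0281). Perforin, Prf1, changed by 1.34 ± 0.75 (adjusted p = 0.173), although each VEH tumour exceeded each normal VEH library. Gzma (granzyme A) went the other way without passing, at 4.68, 5.41 and 8.55 CPM in normal VEH lung against 5.44, 3.57 and 2.95 CPM in VEH tumours (-0.64 ± 0.39, adjusted p = 0.202). The values of Gzmk (granzyme K, 74 counts over all libraries) are uncertain, since Esm1 overlaps it on the opposite strand with 6879 counts. Granzymes are a family of similar sequences, so reads could be shared among them.

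NK receptors divided. Klrk1 (NKG2D, which NK and CD8 T cells use to see stress ligands) measured 2.79, 2.58 and 2.61 CPM in normal VEH lung and 9.94, 5.21 and 7.94 CPM in VEH tumours, and rose by 1.53 ± 0.50 (adjusted p = 0.0323). Ncr1 (NKp46, an NK marker) measured 0.164, 0.724 and 1.01 CPM in normal VEH lung and 0.935, 0.483 and 0.646 CPM in VEH tumours (0.12 ± 0.79, adjusted p = 0.915). Klrb1c (NK1.1) and Klrd1 (CD94) had adjusted p of 0.512 and 0.578. Klrk1 passed and the other 3 did not, and the difference between them was not tested. Klrb1c has close relatives such as Klrb1b, so reads could be shared.

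Xcl1 had the largest change of the list. This chemokine, which attracts cross-presenting dendritic cells, had 10 counts over the 3 normal VEH libraries (0.246, 0.126 and 0 CPM) and 2.04, 2.75 and 5.54 CPM in VEH tumours, a change of 4.74 ± 1.12 (adjusted p = 0.00813). Gm20743 overlaps Xcl1 on the opposite strand with 114 counts of its own against 305, so reads of either gene could belong to the other. Ccl5, which attracts T cells and monocytes, measured 4.19, 9.63 and 5.89 CPM in normal VEH lung and 13.8, 14.7 and 12.3 CPM in VEH tumours without passing (1.05 ± 0.39, adjusted p = 0.0531).

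The chains of the receptor itself did not pass as single genes under VEH, although their levels were mostly above normal. Cd3e (CD3 epsilon) measured 2.34, 1.57 and 1.85 CPM in normal VEH lung and 7.73, 5.28 and 8.49 CPM in VEH tumours (1.90 ± 0.84, adjusted p = 0.0951), and Trac, the alpha constant region, changed by 2.23 ± 0.88 (adjusted p = 0.0653). Without tumour HDM replicate 3, whose spread enters the common fit, 8 further genes rose in this comparison (Cd3e, Cd3g, Trac, Trbc2, Lck, Cd28, Nkg7 and Ccl5), with an adjusted p of 0.00547 for Cd3e. For these 8, every VEH tumour lay above every normal VEH library. Cd247, the zeta chain, did not pass (0.10 ± 0.26). Pou2f1 overlaps Cd247 on the opposite strand with 8181 counts against 3435, so reads counted for Cd247 may belong to it. The lncRNA gene Gm48719 likewise overlaps Cd3e on the opposite strand, with 305 counts against 1089. Trbc1 and Trbc2, the beta constant regions, have annotated transcripts that are 87.3% identical over 691 aligned bases and share a run of 259 bases, so reads could be assigned to either.

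Zap70, the kinase that binds phosphorylated CD3 chains, measured 18.6, 7.27 and 12.3 CPM in normal VEH lung and 4.50, 5.76 and 6.83 CPM in VEH tumours, lower in all 3 (-1.15 ± 0.54, adjusted p = 0.109). The difference between Zap70 and its partners Lck and Lat was not tested. Lck, the kinase that phosphorylates the CD3 chains, was 4.93, 3.71 and 3.58 CPM in normal VEH lung against 15.7, 8.14 and 10.9 CPM in VEH tumours (1.51 ± 0.62, adjusted p = 0.074). Lat changed by 0.29 ± 0.50 and its groups overlapped. Without tumour HDM replicate 3, Zap70 fell (-1.05 ± 0.35, adjusted p = 0.0386) and Lck rose (1.61 ± 0.33, adjusted p = 0.0044).

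**Figure D2:**
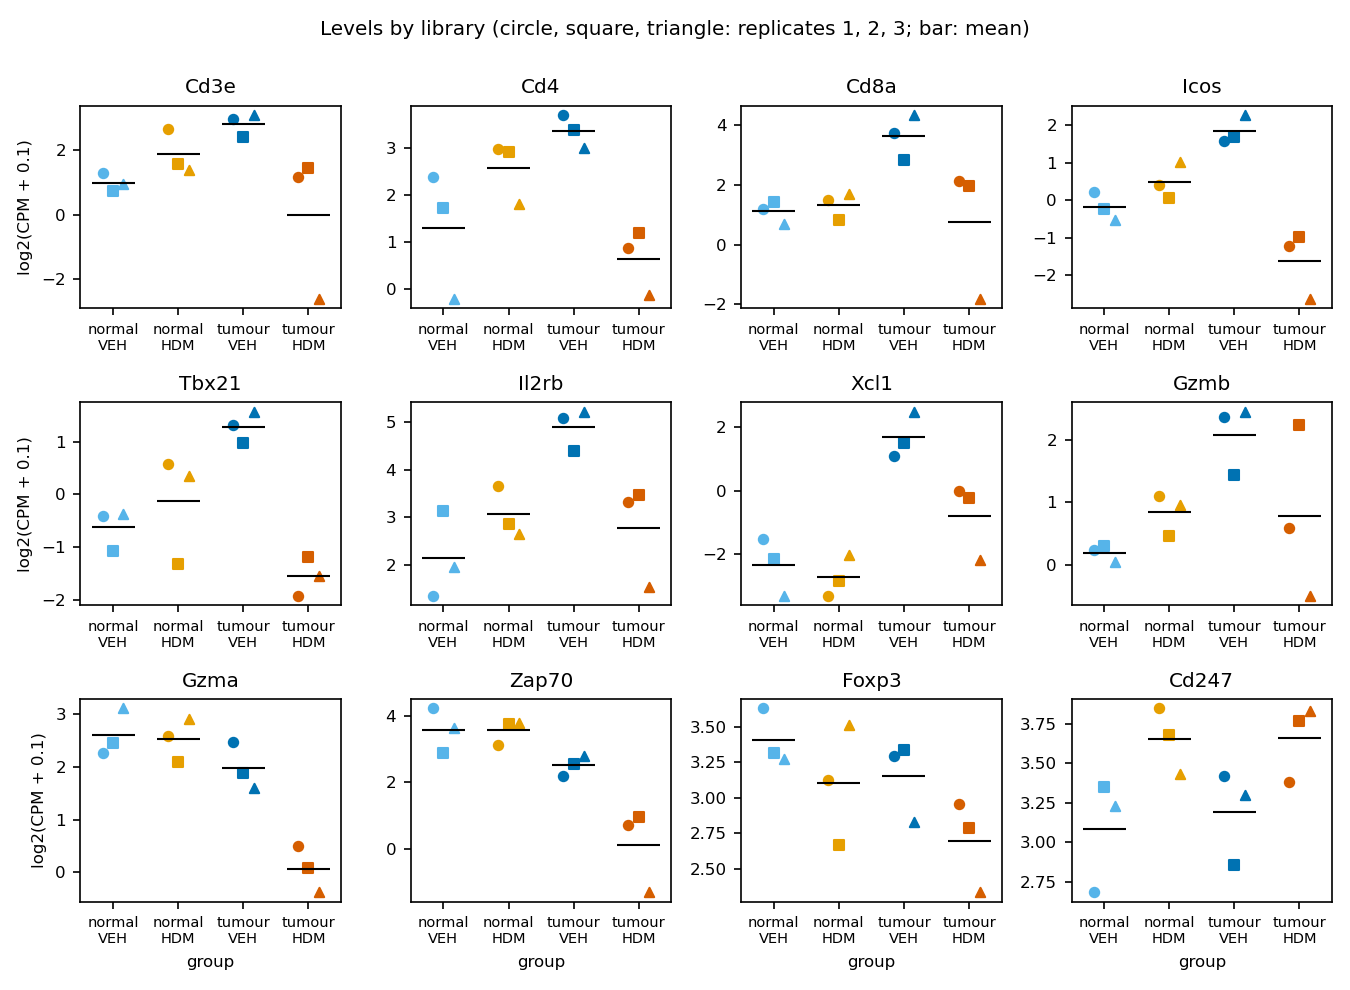
Levels of 12 genes by library, as log2(CPM + 0.1) on the vertical axis, for the 4 groups on the horizontal axis; circles, squares and triangles are replicates 1, 2 and 3 and the bar is the group mean. The 3 VEH tumours lie above all other libraries for Cd8a, Icos, Tbx21, Il2rb and Xcl1, while Gzma and Zap70 have their highest group means in normal lung and Foxp3 and Cd247 have the narrowest ranges.

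This count of 12 depends on the samples. Without normal VEH replicate 1, 2 or 3 it was 5, 7 and 3. Over all genes, those fits called 6265 of 23083, 8742 of 23126 and 6088 of 23110 in either direction, against 8624 of 22190 by default. Without tumour VEH replicate 1 or 3 the count was 4 and 2, and without tumour HDM replicate 3 it was 20 higher and 1 lower. Over all genes, those fits called 5733 of 23204, 5947 of 23174 and 8870 of 23096. Without the 4 libraries of conflicting prefixes the count was 3 (Cd28, Cd6 and Il2rb, each higher), and with a block for the prefix it was 5. Over all genes, those fits called 5603 of 22414 and 5783 of 22190.

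Under HDM, Zap70, Lat, Gzma, Cd2, Icos, Cd4 and other genes were lower in tumours than in normal lung. Between HDM tumours and normal HDM lung, 12 of 38 genes (31.6%) fell and 1 rose by the same test. Of all genes tested, 28.9% fell and 23.0% rose, so the share that fell was near that of all genes. Whether the tumour difference depended on treatment was tested by the interaction, given further on, which called 0 of the 38 by edgeR's quasi-likelihood test, with 26 at an unadjusted p below 0.05 and 7 called by DESeq2's Wald test. The 12 were Trbc1, Trbc2, Cd4, Cd2, Icos, Zap70, Lat, Tbx21, Gzma, Klrb1c, Klrd1 and Ccl5. The log2 change was below 0 for 31 of the 38, with a median of -1.10 against -0.08 over all genes tested. In 15 genes every HDM tumour lay below every normal HDM library (33.5% of all genes), and in 0 did every tumour lie above (29.6% of all genes). Xcl1, the gene that rose, was outside the rule for naming genes and is named because it was the only one.

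Zap70 had the largest fall. It measured 8.64, 13.5 and 13.7 CPM in normal HDM lung and 1.56, 1.84 and 0.303 CPM in HDM tumours, a change of -3.27 ± 0.59 (adjusted p = 0.00126). Lat, the adaptor that Zap70 phosphorylates, measured 7.54, 4.30 and 5.08 CPM in normal HDM lung and 2.09, 1.57 and 0.425 CPM in HDM tumours (-2.05 ± 0.53, adjusted p = 0.00793). Lck, by contrast, did not pass (-1.01 ± 0.61, adjusted p = 0.191), with every HDM tumour still below the normal HDM libraries.

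Gzma measured 5.90, 4.15 and 7.37 CPM in normal HDM lung and 1.31, 0.956 and 0.667 CPM in HDM tumours, a change of -2.57 ± 0.41 (adjusted p = 0.000698). Cd2 fell from 10.6, 15 and 6.52 CPM to 2.14, 2.39 and 0.364 CPM (-2.71 ± 0.60, adjusted p = 0.00391). Both held with no overlap between groups. Zap70, Gzma and Cd2 passed in each of the 21 alternative settings.

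Icos measured 1.23, 0.944 and 1.91 CPM in normal HDM lung and 0.329, 0.410 and 0.0607 CPM in HDM tumours (-2.35 ± 0.61, adjusted p = 0.00874). Cd4 measured 7.78, 7.48 and 3.39 CPM in normal HDM lung and 1.72, 2.19 and 0.819 CPM in HDM tumours (-1.98 ± 0.63, adjusted p = 0.0216), again without overlap, while Cd8a did not pass (0.13 ± 0.79, adjusted p = 0.903; 2.74, 1.66 and 3.17 CPM in normal HDM lung and 4.31, 3.83 and 0.182 CPM in HDM tumours). Per length, the ratio of Cd8a to Cd4 was 0.391, 0.246 and 1.04 in normal HDM lung and 2.77, 1.94 and 0.246 in HDM tumours, where it overlapped through tumour HDM replicate 3, which had 6 Cd8a counts and 27 Cd4 counts. Cd3e (-1.27 ± 0.835, adjusted p = 0.224), Il2rb (-0.14 ± 0.56, adjusted p = 0.848) and Foxp3 (-0.43 ± 0.28, adjusted p = 0.223) did not pass. Tbx21 changed by -1.91 ± 0.60 (adjusted p = 0.0216), with 1.39, 0.302 and 1.18 CPM in normal HDM lung and 0.164, 0.342 and 0.243 CPM in HDM tumours, so the groups overlapped at normal HDM replicate 2.

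Of the NK receptors, Klrb1c (-1.75 ± 0.57, adjusted p = 0.0235) and Klrd1 (-1.40 ± 0.49, adjusted p = 0.0336) fell. Klrk1 did not pass (-0.31 ± 0.49) and Ncr1 did not pass (-1.01 ± 0.81, adjusted p = 0.313). No cytotoxic effector other than Gzma passed: Prf1 changed by -0.63 ± 0.75, Gzmb by 0.35 ± 0.62, and Nkg7, a granule protein of cytotoxic lymphocytes, by -0.99 ± 0.61. Ccl5 fell (-1.18 ± 0.39, adjusted p = 0.0268). Xcl1 rose from 0, 0.0378 and 0.147 CPM (5 counts in all) to 0.903, 0.751 and 0.121 CPM (3.13 ± 1.15, adjusted p = 0.0408), with normal HDM replicate 3 above tumour HDM replicate 3.

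Without tumour HDM replicate 3, 6 genes fell (Cd2, Gzma, Icos, Lat, Trbc1 and Zap70) and Xcl1 rose, and the median was -0.53. That fit called 9822 of all 23096 genes tested, in either direction. Counts of genes called, in either direction, were 7 without normal HDM replicate 1, 8 without normal HDM replicate 3 and 8 without tumour HDM replicate 1. They were 5 with a block for the prefix and 3 (Cd2, Gzma and Zap70, all lower) without the 4 libraries of conflicting prefixes. Over all genes tested, in the same order, these fits called 9977 of 23092, 10695 of 22993, 10395 of 23147, 8631 of 22190 and 8505 of 22414. In each of these fits the share called was larger over all genes than in the list.

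**Figure D3:**
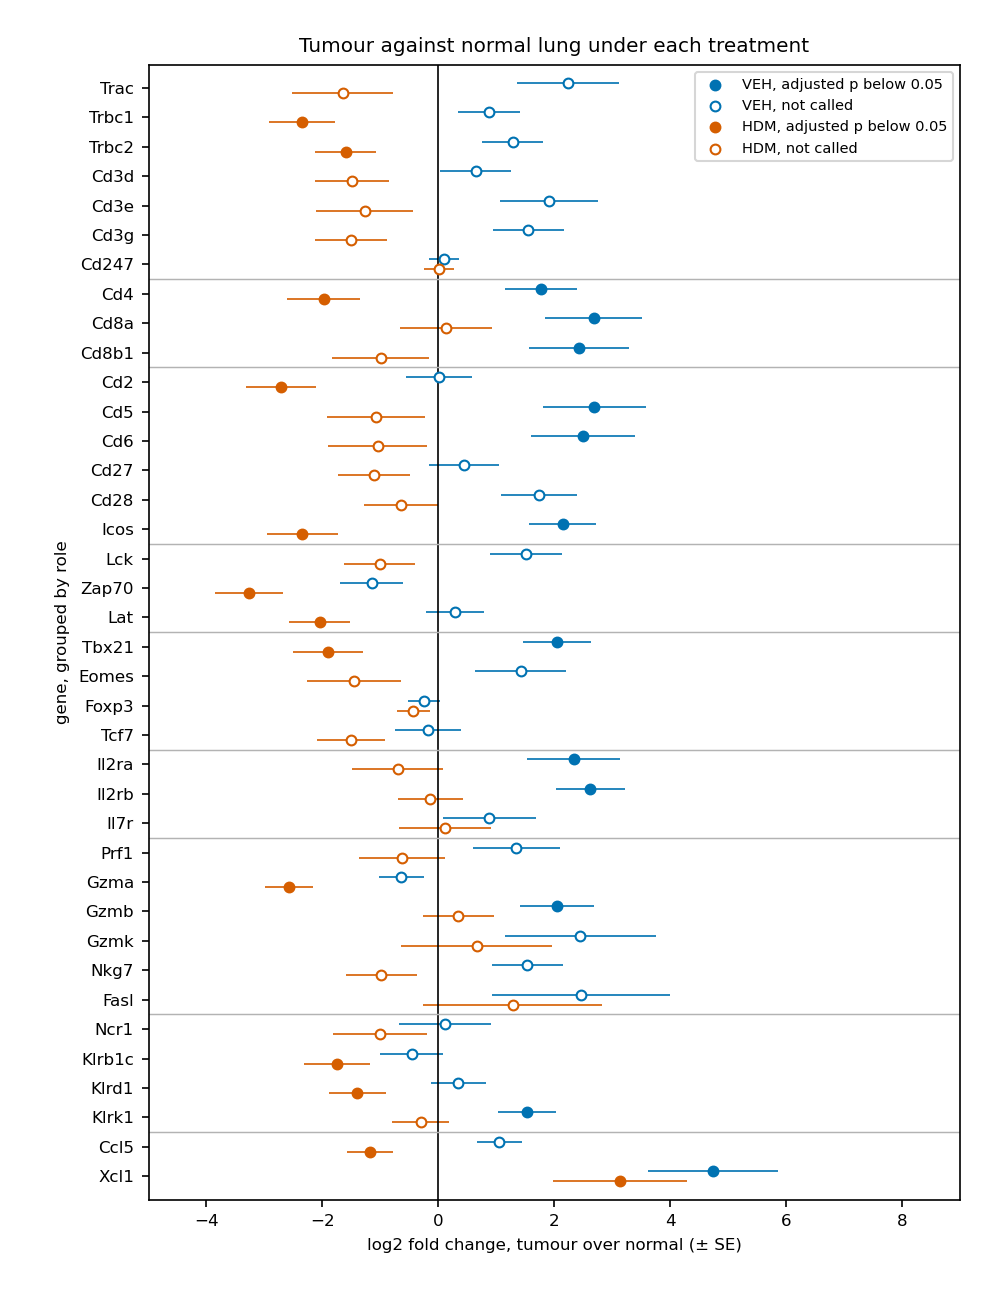
Log2 fold change of tumour over normal lung (horizontal axis, ± SE) for 38 T and NK cell genes (vertical axis, grouped by role), under VEH (blue) and HDM (orange); filled points passed an adjusted p below 0.05 in edgeR's quasi-likelihood test. Under VEH 33 of the 38 points lie right of 0, and under HDM 31 lie left of it.

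Treatment was also compared directly within each tissue. In tumours, edgeR's quasi-likelihood test called 0 of the 38 genes changed between HDM and VEH, with 0.0946% of all genes called. At an unadjusted p below 0.05 it gave 28 of 38, all lower under HDM, where 11.3% of all genes were lower and 16.7% were past it in either direction. DESeq2's Wald test called 18 of the 38, all lower, as it did 4.75% of all genes. With a block for the library-name prefix, 13 of the 38 were at an unadjusted p below 0.05, and without the 4 libraries of conflicting prefixes 22, all lower. In the blocked fit only those 4 libraries link the treatments, so its count rests on their labels. In 29 genes every HDM tumour lay below every VEH tumour, compared with 10.7% of all genes. Changes were below 0 for 36 of 38, with a median of -2.12 against -0.03 over all genes tested.

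Icos had the largest change, -3.74 ± 0.64 (adjusted p = 0.0652), followed by Tbx21 at -3.21 ± 0.62 (adjusted p = 0.0936) and Trbc1 at -3.09 ± 0.58 (adjusted p = 0.0917). Ccl5 changed by -2.24 ± 0.40 (adjusted p = 0.0852) and Gzma by -2.03 ± 0.41 (adjusted p = 0.0979). These 5 had the smallest unadjusted p, and none passed. Icos was 2.89, 3.12 and 4.71 CPM in VEH tumours against 0.329, 0.410 and 0.0607 CPM in HDM tumours, with no overlap.

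Among markers of the main roles, Cd3e changed by -2.15 ± 0.85 (adjusted p = 0.257), Cd4 by -2.71 ± 0.64 (adjusted p = 0.139) and Cd8a by -2.29 ± 0.82 (adjusted p = 0.227). Lck (-2.00 ± 0.63, adjusted p = 0.201) and Il2rb (-1.96 ± 0.57, adjusted p = 0.19) likewise had no overlap between the HDM and the VEH tumours. Klrb1c (-1.34 ± 0.56) did not overlap either, whereas Prf1 (-1.44 ± 0.75), Gzmb (-0.98 ± 0.62), Ncr1 (-0.90 ± 0.81) and Foxp3 (-0.46 ± 0.28) did, with adjusted p from 0.277 for Klrb1c to 0.606 for Ncr1. Nkg7, the granule gene, was 8.16, 6.47 and 11.4 CPM in VEH tumours and 1.81, 3.21 and 0.425 CPM in HDM tumours. Gzmb overlapped because HDM tumour replicate 2, at 4.58 CPM, lay within the VEH range of 2.60 to 5.35 CPM. Cd247 and Il7r were the 2 genes not below 0, at 0.47 ± 0.26 and 0.02 ± 0.79. Role medians ran from -1.46 (cytotoxic effectors) to -2.51 (T-cell receptor and CD3 complex). Without tumour HDM replicate 3 they ran from -0.9 (cytotoxic effectors) to -1.97 (chemokines), with the T-cell receptor and CD3 complex at -1.95.

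Tumour HDM replicate 3 held the lowest values. There, 22 of the 38 genes were under 10% of the median of the other 5 tumours, 14 between 10 and 50%, and only Foxp3 (163 counts, 64.4%) and Cd247 (465 counts, 137%) above. Cd3e had 2 counts, Trac 2, Cd8a 6 and Lck 15, and 218 T-cell receptor variable, diversity and joining segments held 4 counts in all. Leaving it out, the median was -1.65 with 25 of 38 at an unadjusted p below 0.05, and in 29 of the 38 (76.3%) both remaining HDM tumours still lay below all VEH tumours, compared with 15.5% of all genes. Changes that were then smaller by over 1.5 times were those of Tcf7 (-0.49), Gzmb (-0.50), Fasl (-0.82), Gzmk (-0.86), Foxp3 (-0.27), Cd28 (-0.66) and Prf1 (-0.93), and Il7r went to 0.59. Icos was -3.23, Tbx21 -3.16, Trbc1 -2.76, Ccl5 -1.91, Gzma -1.78, Cd3e -1.55, Cd4 -2.37 and Cd8a -1.71. Cd3e was 2.14 and 2.66 CPM in HDM replicates 1 and 2 against 5.28 CPM in the lowest VEH tumour. The summed CPM of all 38 was 105.9 and 120.2 in HDM tumours 1 and 2 and 36.06 in replicate 3, against 297.1, 215.8 and 287.0 in VEH tumours.

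**Figure D4:**
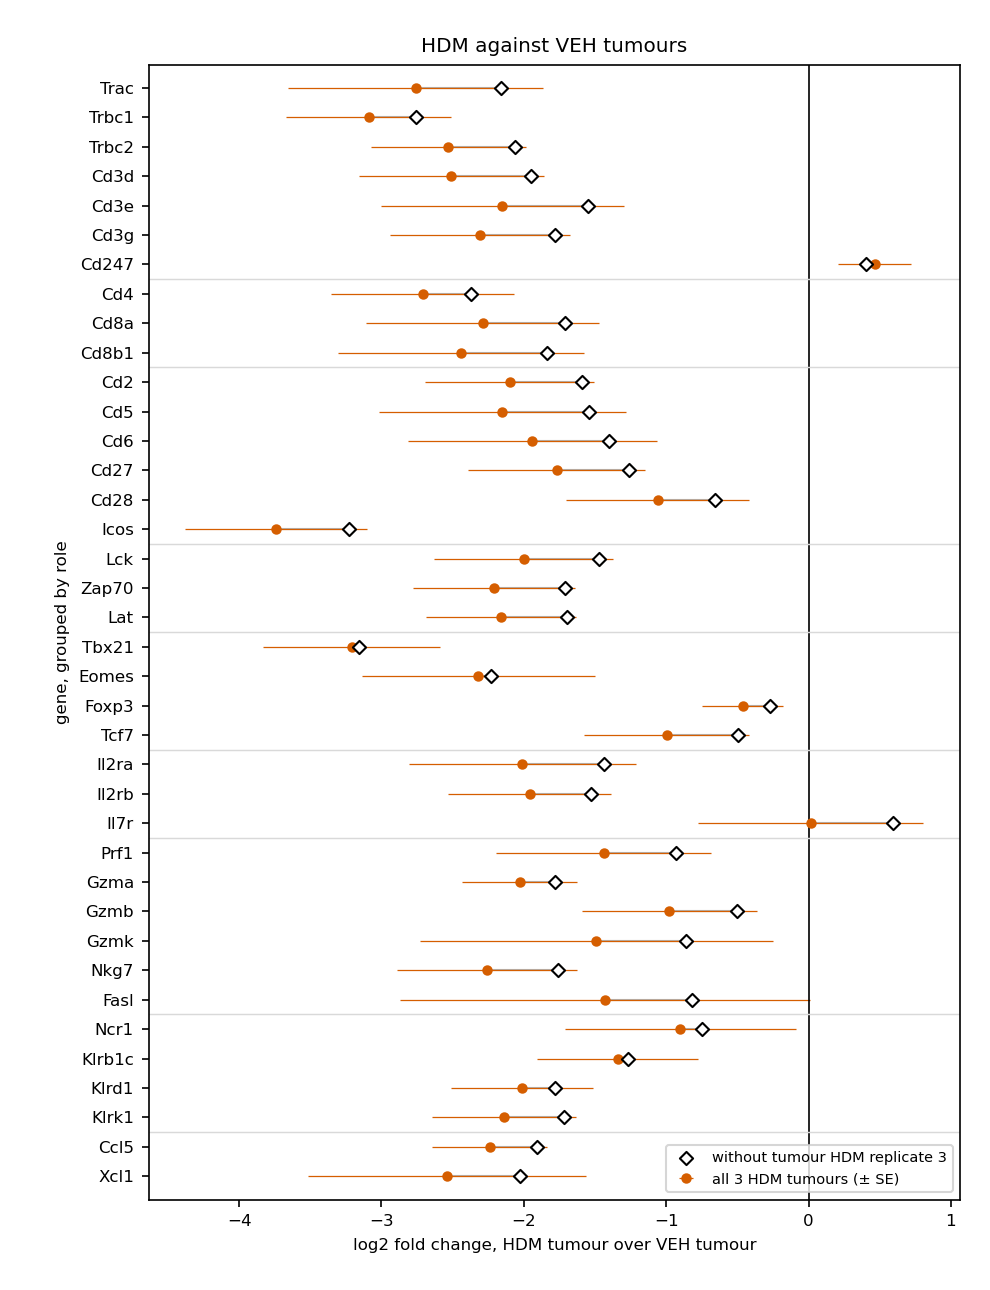
Log2 fold change of HDM over VEH tumours (horizontal axis) for 38 T and NK cell genes (vertical axis); orange points with ± SE use all 3 HDM tumours, open diamonds leave out tumour HDM replicate 3. The median moves from -2.12 to -1.65 and 36 of 38 remain below 0 in both.

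Antigen receptor segments followed the constant regions. Over the 218 segments the counts were 249, 152 and 307 in VEH tumours and 70, 83 and 4 in HDM tumours, with no overlap. In normal lung they were 82, 70 and 49 under VEH and 144, 197 and 80 under HDM, which overlapped at HDM replicate 3. Segments with at least 1 count numbered 45, 41 and 39 in VEH tumours and 22, 15 and 2 in HDM tumours. These counts were not tested as a group.

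In normal lung, edgeR's quasi-likelihood test found 0 of 38 genes changed between HDM and VEH (0.0% of all genes) and 0 at an unadjusted p below 0.05 (5.54% of all genes), and DESeq2's Wald test called 0. The log2 change was above 0 for 27 of 38, with a median of 0.43 against -0.01. In 6 genes (Cd247, Cd3e, Cd3g, Cd5, Gzmb and Il2ra) all HDM libraries lay above all VEH libraries, compared with 4.47% of all genes. Cd3e, for example, was 2.34, 1.57 and 1.85 CPM under VEH and 6.31, 2.87 and 2.50 CPM under HDM (1.02 ± 0.83, adjusted p = 0.957), and Cd4 5.09, 3.21 and 0.758 CPM against 7.78, 7.48 and 3.39 CPM. The smallest unadjusted p belonged to Cd247 (0.56 ± 0.26), Cd28 (1.32 ± 0.65), Cd5 (1.61 ± 0.86), Cd6 (1.61 ± 0.88) and Cd4 (1.04 ± 0.61), with adjusted p from 0.887 to 0.903. Cd8a changed by 0.25 ± 0.80, Lck by 0.51 ± 0.61, Il2rb by 0.80 ± 0.56 and Foxp3 by -0.28 ± 0.28. Tbx21 (0.75 ± 0.58), Gzmb (0.72 ± 0.63) and Prf1 (0.53 ± 0.745) also did not pass, and Ccl5, Gzma, Klrb1c and Ncr1 changed by -0.01, -0.10, -0.04 and 0.23.

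The interaction, which asks whether the tumour to normal difference depends on treatment, was below 0 for all 38 genes, with a median of -2.36 against -0.02 over all genes tested. EdgeR's quasi-likelihood test called 0 (0.0% of all genes). Past an unadjusted p below 0.05 were 26 of 38, all lower, against 6.06% of all genes lower and 9.39% in either direction. DESeq2's Wald test called 7, all lower, as it did 0.82% of all genes. Without tumour HDM replicate 3 the median was -1.92, 37 of 38 were below 0 and 23 were at an unadjusted p below 0.05. With a block for the prefix 17 were at that level, and without the 4 libraries of conflicting prefixes 16. Icos had the smallest unadjusted p (-4.50 ± 0.85, adjusted p = 0.286), and Tbx21 followed (-3.96 ± 0.84, adjusted p = 0.376). Cd4 was -3.75 ± 0.88, Trbc1 -3.23 ± 0.78 and Ccl5 -2.23 ± 0.55. Cd3e was -3.16 ± 1.19, Cd8a -2.55 ± 1.13, Lck -2.51 ± 0.87 and Il2rb -2.76 ± 0.80. Gzmb was -1.70 ± 0.88, Prf1 -1.97 ± 1.06, Klrb1c -1.29 ± 0.78, Ncr1 -1.13 ± 1.13, Foxp3 -0.18 ± 0.40 and Cd247 -0.09 ± 0.36. Without tumour HDM replicate 3, Icos was -3.97, Tbx21 -3.91, Cd3e -2.57 and Foxp3 0.02.

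Another 45 tested genes of T and NK cells, from a second list of 49, were read beside the 38. Under VEH 4 rose (Il2rg, Runx3, Sh2d2a and Klrc1) and 6 fell, among them Gata3 and S1pr1. Under HDM 24 fell. The summed level of the list was 642, 534 and 628 CPM in VEH tumours against 1050, 881 and 1040 CPM in normal VEH lung. Genes of high level weigh most in that sum, such as S1pr1 (mean 223 CPM in normal VEH lung, 39.1 CPM in VEH tumours) and Il18r1 (108 and 26.8 CPM). Il2rg went the other way (34.9 and 66.1 CPM). The mean log2 level of the list overlapped, at 2.26, 1.86 and 2.21 in VEH tumours and 2.23, 1.96 and 1.83 in normal VEH lung. The medians of the list were 0.30 under VEH, -1.65 under HDM and -1.70 for HDM against VEH tumours. Runx3, a RUNX factor of CD8 T cells, rose under VEH by 2.70 ± 0.45 (adjusted p = 0.00157), and Gata3, a factor of type 2 T cells, fell (-2.42 ± 0.64, adjusted p = 0.0134). Under HDM, Gata3 changed by -5.44 ± 0.76 (adjusted p = 0.000336) and S1pr5, an exit receptor of NK cells, by -4.15 ± 0.83 (adjusted p = 0.00222).

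Some markers of other cells also differed between the groups. Endothelial genes, of which 5 of 5 fell in tumours under each treatment, summed to 262, 170 and 81.9 CPM in HDM tumours and 279, 442 and 283 CPM in VEH tumours, with no overlap. Their median change between HDM and VEH tumours was -1.07, that of the dendritic cell genes -1.32 and that of the lymphoid stroma genes -1.08. Lymphoid stroma genes summed to 16.4, 6.28 and 2.09 CPM in HDM and 14.9, 25.3 and 51.9 CPM in VEH tumours, and dendritic cell genes to 33.4, 43.5 and 42.5 CPM against 39.0, 37.0 and 34.0 CPM, both overlapping. The 6 pan-leukocyte genes summed to 709, 849 and 511 CPM in HDM tumours against 1270, 708 and 896 CPM in VEH tumours, which overlapped. The macrophage and monocyte list summed to 3020, 3930 and 1910 CPM against 3640, 3350 and 1910 CPM. B and plasma cell genes, of which 6 of 7 fell in tumours under VEH and 5 of 7 under HDM, summed to 34.9, 54.1 and 6.28 CPM in HDM tumours, 17.7, 22.3 and 11.3 CPM in VEH tumours and 39.3 to 1180 CPM in normal lung. Epithelial genes summed to 2060, 2540 and 6.91 CPM in HDM tumours, 1770, 22100 and 6690 CPM in VEH tumours and 48500 to 109000 CPM in normal lung. In the same order, Cd3e was 2.14, 2.66 and 0.0607 CPM in HDM tumours and 7.73, 5.28 and 8.49 CPM in VEH tumours. Fibroblast genes summed to 3640, 4150 and 3830 CPM in HDM and 4110, 2570 and 3850 CPM in VEH tumours. The part of tissue composition in the T and NK cell values was not tested.

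Relative to Ptprc (CD45, on all leukocytes), the mean log2 level of the 38 genes was -5.38, -5.20 and -6.39 in HDM tumours and -4.43, -3.27 and -3.89 in VEH tumours, with no overlap. In normal lung it was -4.28, -5.81 and -4.45 under VEH and -5.21, -5.10 and -4.13 under HDM, which overlapped. Ptprc itself passed in no comparison.

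**Figure D5:**
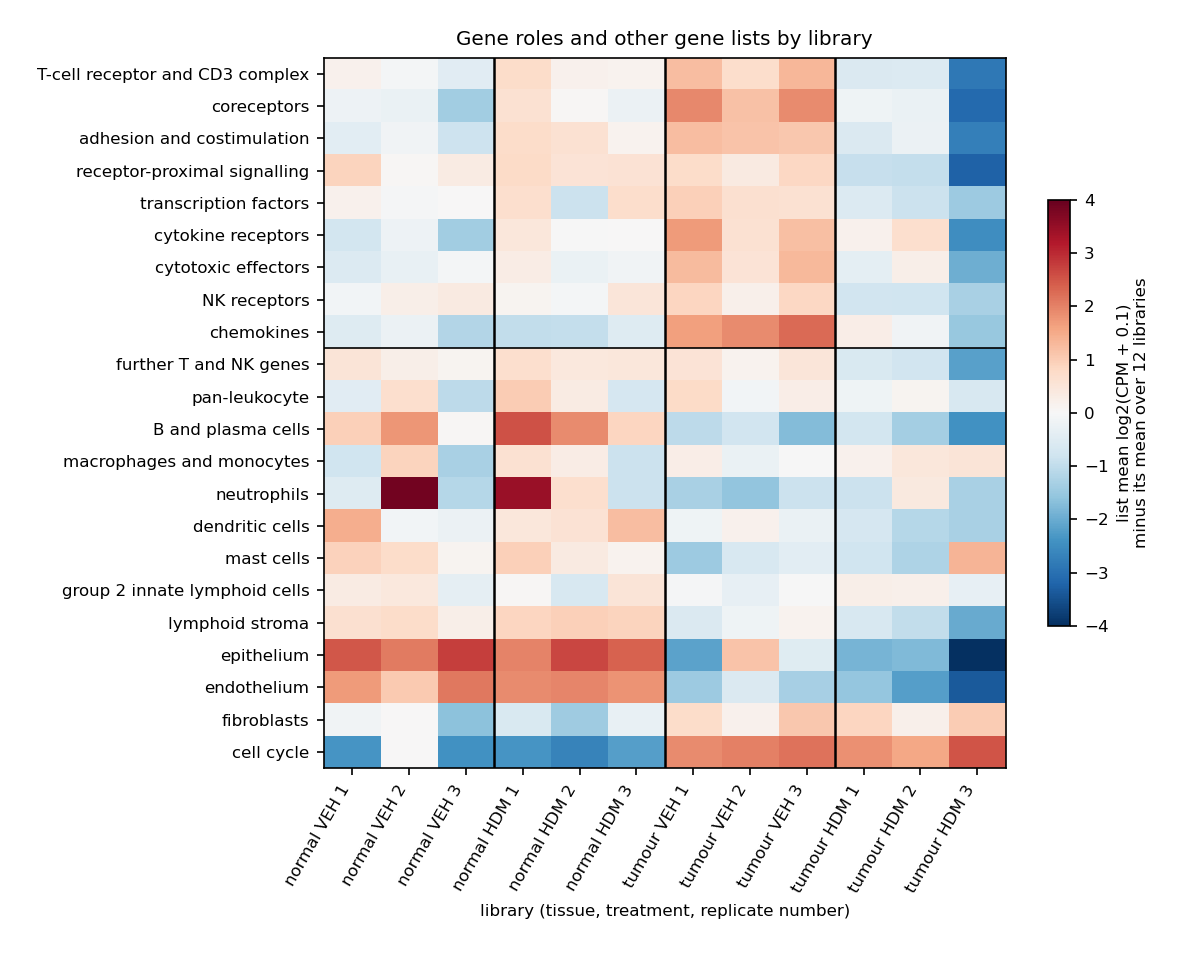
Mean log2(CPM + 0.1) of each gene role (above the line) and of other gene lists (below it) in 12 libraries, minus the mean over the 12 libraries. Rows of T and NK cell roles are red in the VEH tumours and blue in HDM replicate 3, where the epithelium row is also at its lowest.

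Per length, the mean levels in VEH tumours ran from 0.861 TPM for Klrb1c to 44.1 TPM for Trbc2, with Ccl5 (39.6 TPM), Trac (33.3 TPM), Nkg7 (27.3 TPM) and Il2rb (20.5 TPM) next below Trbc2. In normal VEH lung the order differed, with Ccl5 (13.7 TPM), Gzma (11.7 TPM) and Trbc2 (11.7 TPM) highest, and Il2rb at 2.37 TPM. Among HDM tumours Ccl5 (10.2 TPM) led, Trbc2 (8.95 TPM) and Cd247 (8.04 TPM) followed. Some of these genes are neighbours: Cd3g and Cd3d lie head to head on chromosome 9, 1347 bases apart, and Cd8b1 and Cd8a on chromosome 6, 35323 bases apart. Cd3d and Cd3e lie 10863 bases apart.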

How the data were processed

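Raw counts per Ensembl gene, with gene lengths, are the authors' deposited table, per the file headers. The submitters' processing notes name Trim Galore, STAR, Subread, featureCounts and the mm39 build, with no versions, and no strand setting is given. Per the labels' protocols, libraries were made by a stranded dUTP workflow, and all carry 1 batch label. Symbols, positions and promoters were taken from GENCODE M39 (GRCm39, the same build), where 38 of 38 members matched. Counts were tested in R 4.3.3 with edgeR 4.0.16: filterByExpr (minimum count 10) kept 22190 genes, libraries were scaled by TMM, and 1 coefficient per group was fitted over 12 libraries with robust quasi-likelihood. Of 5 comparisons, adjusted p (Benjamini-Hochberg over all genes tested, two-sided) below 0.05 was the call. Standard errors are the log2 change divided by the square root of F. Levels are CPM, or TPM where genes are compared. Figures and list means use log2(CPM + 0.1). No column of other samples was used. Genes named are called members, up to 12 by smallest p, the 5 with the smallest unadjusted p where fewer than 3 were called, and 12 markers in every comparison. Members and lists were chosen with earlier results of these data known. On simulated data the fit returned the right direction and size of known changes with few false calls. It called only part of the smaller changes, fewer than the bound first set for it. The simulation gave every gene the same spread and changed only genes above a set mean count. It does not show how often changes are called in genes of wider spread or lower counts. That bound was then replaced by one on direction, size and larger changes, so a gene not called here may still differ. Alternatives were scaling, filtering, DESeq2 1.42.0, blocks and leaving out libraries.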

Additional observations from a re-analysis of the deposited data

How the results depend on the processing

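Directions of the 38-gene medians were the same under DESeq2 size factors and scaling by library size only, where the median of all genes moved from -0.11 to 0.03 under VEH and from -0.08 to 0.10 under HDM and the medians of the 38 were 1.66 and -0.92. For tumour against normal under VEH, 12 genes were called by default, 5 of 21 with at least 10 counts in every library and 19 by DESeq2's Wald test. Over all genes these settings called 8624 of 22190, 6893 of 15292 and 10379 of 22190, in either direction. The count was 5 with a block for the prefix, 3 without the 4 libraries of conflicting prefixes and 2 to 21 leaving out 1 library. Over all genes it was 5783, 5603 and 5733 to 9070. Under HDM, 13 were called by default, 5 with a block for the prefix, 3 without the conflicting libraries and 7 to 13 leaving out 1 library. Over all genes these counts were 11512, 8631, 8505 and 9822 to 11801. For HDM against VEH tumours, 0 were called, against 3 with no filter on low counts (Ccl5, Icos and Trbc1), 2 with at least 10 counts (Ccl5 and Trbc1) and 18 by DESeq2. Over all genes these settings called 21 of 22190, 52 of 40856, 53 of 15292 and 1308 of 22190. The interaction gave 0, and 7 by DESeq2, where DESeq2 called 219 of all 22190 genes. The cause of these differences was not tested. The counts at an unadjusted p below 0.05, 28 in tumours and 26 in the interaction, were 13 and 17 with a block for the prefix and 22 and 16 without the conflicting libraries. The 13 rests on the labels of the 4 conflicting libraries, which alone link the treatments in that fit. A replicate block called 11 and 12 in the comparisons of tumour with normal lung under VEH and HDM, and 0 in the others. Over all 22190 genes it called 7830 and 11001 in those comparisons. Deviations from group means were correlated between libraries of the same replicate number. The values were -0.219, -0.297 and -0.023 between normal and tumour VEH, and -0.102, 0.158 and 0.161 between normal and tumour HDM. They were -0.355, 0.093 and 0.279 between normal HDM and VEH, and -0.243, 0.235 and 0.033 between the tumours. Between normal HDM and tumour VEH they were 0.303, 0.146 and 0.058, and between normal VEH and tumour HDM 0.13, 0.112 and -0.018. Prefix pairs correlated between -0.219 and 0.179. As pairs joined by name did not stand out either, these correlations cannot decide whether replicate numbers pair the samples. Of single-gene results under the alternatives, 1527 kept both their sign and their status as called or not called, whatever the size of the change. A call was lost in 140 and gained in 28, and 37 of those not called changed sign. Depth limits Gzmk, Fasl and normal Xcl1, with few counts per library.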
